A study of Mus musculus with 8 samples.

Results

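Metabotropic glutamate receptors are G protein-coupled receptors that sense synaptic glutamate. Of the genes of this family, Grm2, Grm3, Grm4, Grm5, Grm7 and Grm8 were taken by symbol, 6 of the 32285 genes counted. Their unique molecular identifier (UMI) counts were summed per library within nuclei assigned to a cell type by marker genes, none of which was a receptor gene. Nuclei came from the cerebral cortex of C57BL/6J mice at postnatal day 25. There were 4 wild type libraries (WT) and 4 labelled Chd8 heterozygous (Chd8het), and each genotype was split evenly by sex. The labels describe pairs of animals alike in litter and sex, cortex without its medial portion, frozen tissue, and nuclei isolated in parallel for all 8 samples. Replicate 1 of each sex and genotype carried a single index and replicate 2 a dual index. The Chd8 allele is not described in the sources used here.

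The family is divided by sequence and coupling. The group I receptor Grm5 acts through Gq proteins, phospholipase C and calcium release and sits mainly at the edge of postsynaptic densities. Group II (Grm2, Grm3) and group III (Grm4, Grm7, Grm8) receptors act through Gi and Go proteins, inhibit adenylyl cyclase and often restrain transmitter release from axon terminals. Grm3 is also known as an astrocyte receptor, Grm7 as a receptor of the presynaptic active zone with low glutamate affinity, and Grm2 as an autoreceptor and a target of drug development in psychiatry.

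The libraries held 69503598 to 98132783 UMIs and 9140 to 14280 barcodes, and 77890 nuclei were kept over all. Any 2 libraries shared 20 to 38 barcodes, at most 0.398% of the smaller. A type was assigned to 44196 nuclei (56.7% of those kept), and 15 types had at least 30 nuclei in each library. These were 6 glutamatergic types, namely L2/3, L4/5 and L5/6 intratelencephalic (IT), L5 extratelencephalic (ET), L5/6 near-projecting (NP) and L6 corticothalamic (CT), then 4 GABAergic types (Pvalb, Sst, Vip, Lamp5/Reln) and 5 glial types, the astrocyte, OPC (oligodendrocyte precursor cell), committed oligodendrocyte precursor, oligodendrocyte and microglia. Names are by markers and mean resemblance. Of the L5/6 NP nuclei 73.6% had the same type when types were taken from clusters of nuclei, the lowest share of the tested types. The required margin of the marker score was passed by under 0.05 in 33.9% of L5/6 NP and 39.8% of L5 ET nuclei. The glial gates carried their own lists at summed levels of 11753 (astrocyte), 8568 (OPC), 17853 (oligodendrocyte) and 8521 CPM (microglia), where CPM, the standard depth-scaled unit, is proportional to a gene's share of all UMIs of the gate. Over 6 gates together (glutamatergic and GABAergic neurons, astrocytes, OPC, oligodendrocytes and microglia) Chd8 itself was at 77.5 ± 2.51 CPM in the WT and 78.9 ± 5.38 CPM in the Chd8het libraries (mean ± SD, n = 4 each). By type its log2 difference ran from -0.33 in Vip to 0.26 in Lamp5/Reln, with -0.16 in L6 CT, and was called in none by edgeR. Its mRNA therefore gives no check of the labels.

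In GRCm38 coordinates from mouse GENCODE release 21, Grm5 (ENSMUSG00000049583) lies on chromosome 7, 87584168 to 88134907, plus strand. Grm2 (ENSMUSG00000023192) lies on chromosome 9, 106643095 to 106656082, and Grm3 (ENSMUSG00000003974) on chromosome 5, 9485541 to 9725170, both on the minus strand. Of group III, Grm4 (ENSMUSG00000063239) lies on chromosome 17, 27422387 to 27521403, minus strand, Grm7 (ENSMUSG00000056755) on chromosome 6, 110645581 to 111567230, plus strand, and Grm8 (ENSMUSG00000024211) on chromosome 6, 27275119 to 28135178, minus strand. All 6 are protein coding. The antisense genes Gm28111 and Gm20387 overlap Grm2 and Grm7 and were counted as genes of their own. Whether counting used strand or introns is not given in the sources used here. Levels are compared between types within a gene and not between genes, because long genes can give more nuclear reads.

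Grm5 was a receptor of both neuron classes. Among the 15 tested types its highest mean was in Lamp5/Reln interneurons, 2648 ± 230.3 CPM (mean ± SD over libraries, n = 8, as for all levels by type), with the libraries between 2269 and 3004 and a median of 2583 CPM. L5/6 NP neurons followed at 2525 ± 271.3 CPM, and the order of these 2 types did not hold beyond the spread (exact sign-flip permutation test over 8 libraries, two-sided, adjusted p 0.204). L2/3 IT (2009 ± 167.5 CPM) and Pvalb neurons (1969 ± 142.0 CPM) came next and did not differ beyond their spread. L6 CT neurons, which project to the thalamus, and Vip interneurons had the lowest neuronal levels, 1053 ± 101.4 and 1022 ± 108.0 CPM. The step from L4/5 IT (1595 ± 95.1 CPM) down to L6 CT was present in 8 of 8 libraries (log2 difference 0.60, exact sign-flip permutation test, p 0.0078, adjusted p 0.0345). With 8 libraries 0.0078 is the smallest p this test can give. Among glia Grm5 was highest in OPC at 817 ± 119.0 CPM, with libraries from 661 to 1060 CPM, and lowest in oligodendrocytes at 285 ± 72.7 CPM.

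Grm2, the group II receptor with the fewest UMIs here, had its highest mean in L4/5 IT neurons. The level there was 19.8 ± 3.77 CPM, with 1158 UMIs in all, a lowest library at 11.5, a median of 20.2 and a highest library at 23.4 CPM. Microglia (10.7 ± 3.94 CPM), L5/6 NP (10.6 ± 3.78 CPM) and L5/6 IT neurons (9.75 ± 2.01 CPM) followed, with no distinct step between neighbours in the order. L4/5 IT stood above microglia in 8 of 8 libraries, and L5/6 IT above L2/3 IT (5.39 ± 0.785 CPM) in 8 of 8 (exact sign-flip permutation test, adjusted p 0.0345 for each). All other types were at 1.42 to 5.09 CPM, where single libraries counted few UMIs. Counts were also few in microglia (2 to 14 UMIs per library) and L5/6 NP neurons (2 to 17). The microglial level is set beside neuronal reference genes below. In Sst interneurons 8 UMIs were counted over all libraries and 4 of the 8 libraries were at 0.

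Grm3, the other group II receptor, had its highest level in astrocytes. The astrocyte mean was 2115 ± 625.1 CPM, with the lowest library at 1285, the median at 2272 and the highest at 2912 CPM. L4/5 IT (714 ± 204.6 CPM), oligodendrocytes (672 ± 82.1 CPM), L6 CT (665 ± 186.3 CPM) and L5/6 NP (663 ± 153.6 CPM) followed, with no distinct step between neighbours in the order. Astrocytes were above L4/5 IT in 8 of 8 libraries by 1.55 on the log2 scale (exact sign-flip permutation test, p 0.0078, adjusted p 0.0345). The upper-layer L2/3 IT neurons were at 260 ± 81.1 CPM and L5 ET neurons at 166 ± 27.0 CPM, and Vip and Lamp5/Reln interneurons were lowest at 87.7 ± 13.2 and 88.7 ± 19.8 CPM. At least 1 Grm3 UMI was found in 86.7 ± 4.43% of astrocytes, whose median depth was 2638 UMIs, and in 25.7 ± 5.45% of OPC, with a median depth of 2909 UMIs (n = 8 libraries). With each nucleus thinned to 1000 UMIs the shares were 74.5 ± 8.39% and 10.1 ± 1.60%, and 198 astrocytes and 16 OPC were too shallow to enter. In microglia, at a median depth of 1458 UMIs, the share was 18.1 ± 5.96%, and 12.2 ± 3.74% after thinning, with 537 of 3636 microglia too shallow to enter.

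Grm4, a group III receptor best known from cerebellar granule cells, was sparse in all cortical types. L5/6 NP neurons had the highest mean, 55.8 ± 24.8 CPM, with libraries from 28.0 to 106 and a median of 49.1 CPM. L5 ET (34.7 ± 20.5 CPM) and L4/5 IT neurons (30.1 ± 13.2 CPM) followed. The step from L5/6 NP to L5 ET was the only distinct neighbour pair of this gene (8 of 8 libraries, exact sign-flip permutation test, adjusted p 0.0345). Vip (24.8 ± 10.7 CPM) and Sst interneurons (23.5 ± 6.77 CPM) stood next to L6 CT (21.7 ± 12.8 CPM), with no distinct step between neighbours. L2/3 IT neurons were at 6.44 ± 3.59 CPM, and astrocytes and oligodendrocytes were lowest at 3.67 ± 1.65 and 3.52 ± 2.04 CPM.

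Grm7 had its highest tested level in L4/5 IT neurons, 3978 ± 221.1 CPM, with libraries from 3684 to 4309 and a median of 3949 CPM. The next places were held by L5/6 NP (3443 ± 277.9 CPM), L2/3 IT (2934 ± 162.9 CPM) and L5/6 IT neurons (2587 ± 125.6 CPM), and each of these 3 steps was present in 8 of 8 libraries (adjusted p 0.0345, exact sign-flip permutation test). L6 CT neurons were apart from the other glutamatergic types at 1221 ± 116.5 CPM. The interneurons split: Vip (2541 ± 319.7 CPM) and Sst (2176 ± 93.2 CPM) were near the excitatory types. Lamp5/Reln (494 ± 135.0 CPM) and Pvalb (424 ± 63.5 CPM) were lower than OPC, oligodendrocytes and microglia in mean level. The Grm7 levels of these glial types lay within the range of the neuronal reference genes given below, so they need not be glial expression. Astrocytes had the lowest mean, 374 ± 86.8 CPM.

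Among the tested glutamatergic types Grm8 had its higher means in L6 CT, L5/6 NP, L5/6 IT and L5 ET, and among interneurons its highest in Vip. L6 CT (1124 ± 55.1 CPM), L5/6 NP (1099 ± 208.2 CPM), Vip (979 ± 189.6 CPM), L5/6 IT (890 ± 48.2 CPM) and L5 ET neurons (865 ± 70.98 CPM) held the first 5 places. Only neighbours in the order were tested, and no step between neighbours was distinct here, but the L6 CT libraries (1014 to 1179 CPM) were all above those of L5/6 IT (780 to 943 CPM) and L5 ET (749 to 938 CPM). Below these 5 the level dropped by 1.62 on the log2 scale to L2/3 IT (281 ± 26.0 CPM), in 8 of 8 libraries (exact sign-flip permutation test, adjusted p 0.0345). L4/5 IT neurons, the tested type with the most Grm7, were at 108 ± 24.8 CPM. Pvalb interneurons were lowest at 47.2 ± 18.7 CPM, with a median of 42.3 and a highest library at 92.7 CPM. Over the 6 genes, 19 of 84 neighbour pairs in the orders were distinct after adjustment, 5 each for Grm5 and Grm7, 3 each for Grm3 and Grm8, 2 for Grm2 and 1 for Grm4.

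**Figure D1:**
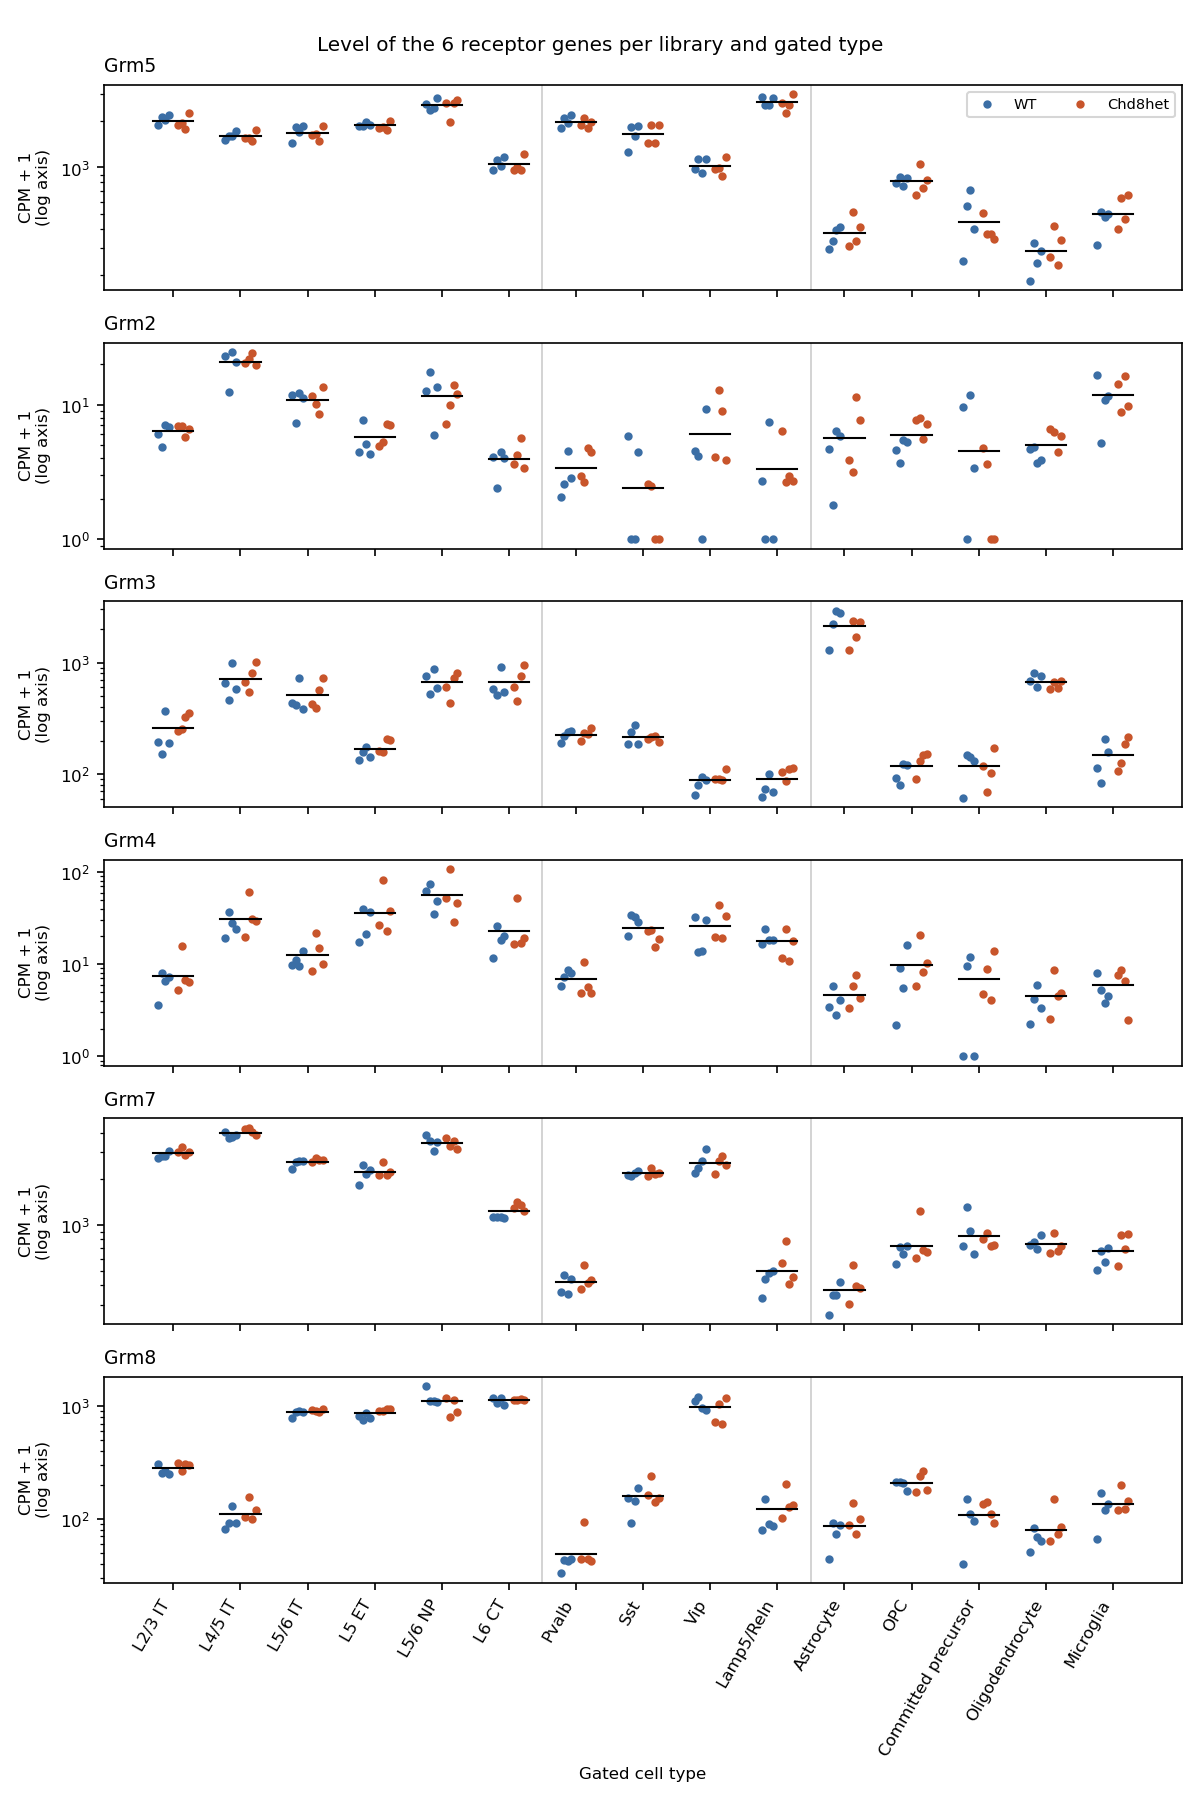
Level of each receptor gene (CPM + 1, log axis, a separate range for each gene) in the 15 gated types; each point is 1 library, blue for WT and orange for Chd8het, and the black line is the mean of 8 libraries. Grm3 is highest in astrocytes (2115 CPM), Grm7 and Grm2 in L4/5 IT, Grm8 in L6 CT, Grm5 in Lamp5/Reln and Grm4 in L5/6 NP.

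The order depended on the unit. As UMIs per nucleus, which grow with the RNA captured from a nucleus, Grm3 had its highest mean in L4/5 IT (7.43 ± 2.72 per nucleus, against 5.93 ± 2.00 in astrocytes, n = 8), although astrocytes were higher in 3 of 8 libraries. By the same unit Grm4, Grm5 and Grm8 were highest in L5 ET, whose nuclei had the highest median depth of the tested types, 14478 UMIs. Among the tested types Grm2 and Grm7 were highest in L4/5 IT by both measures. This unit was added after the data had been seen.

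Mural cells and striatal projection neurons, with too few nuclei for a test, are given as values. Endothelial cells, vascular fibroblasts and L6b neurons also had too few, and their levels are not described here. Mural cells, the pericytes and smooth muscle cells of vessels, had 16 to 56 nuclei per library and carried Grm7 at 4071 ± 1163 CPM and Grm3 at 1745 ± 408.2 CPM. The lowest library was at 2805 CPM for Grm7 and 966 CPM for Grm3, and the means were 145% (Grm7) and 402% (Grm3) of the levels in glutamatergic neurons, where neuronal reference genes were at 19.2 to 71.9%. Nuclei with markers of striatal projection neurons were found in 7 of the 8 libraries. Grm5 was at 3121 to 5064 CPM in the 5 libraries with 23 to 86 such nuclei, and at 3679 and 311 CPM in the 2 libraries with 1 nucleus each. The nuclei number 214 and lie outside the cortical types.

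Levels in glia were set beside Snap25, Syt1, Rbfox3 and Slc17a7, neuronal genes that glia should largely lack. Free RNA, doublets, misassigned nuclei and low expression were not separated as sources of their UMIs in glial gates. In microglia these 4 genes were at 20.1 to 75.7% of their level in glutamatergic neurons. Grm5 (28.9%), Grm7 (24.0%), Grm8 (24.4%), Grm3 (30.9%) and Grm4 (29.8%) lay within that range. In mean level Grm2 was above it at 108 ± 30.7% (n = 8, libraries 65.7 to 153.9%), from 64 microglial UMIs over all libraries. These reference ranges are of means. Slc17a7, the highest reference, was at 57.3 to 90.3% over the microglial libraries, which overlapped those of Grm2. In oligodendrocytes the reference range was 12.5 to 35.8%. Grm3 was at 152 ± 53.3% there and Grm2 at 43.6 ± 15.5%, with Grm2 libraries (22.7 to 62.4%) overlapping those of Slc17a7 (27.8 to 43.2%). The other 4 members were inside the range. Grm7 was at 26.5%, where Snap25 was at 24.7%, Syt1 at 14.7% and Rbfox3 at 12.5%. In astrocytes the reference range was 11.9 to 45.9%, Grm3 was at 469 ± 189.6%, with the lowest library at 297.6%, and the other 5 members were between 13.2 and 45.0%. In OPC, with references at 12.9 to 42.4%, Grm5 reached 48.0 ± 6.66%, Grm2 51.8 ± 17.6% and Grm4 45.0 ± 25.3%. Their libraries (41.0 to 63.1%, 35.6 to 82.8% and 11.5 to 96.6%) overlapped those of Slc17a7 (34.5 to 49.6%). Grm8 at 38.7%, Grm7 at 25.7% and Grm3 at 25.1% were inside the range. Of the references, Snap25 was at 39.4%, and Syt1 at 16.5% and Rbfox3 at 12.9% were below these members.

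**Figure D2:**
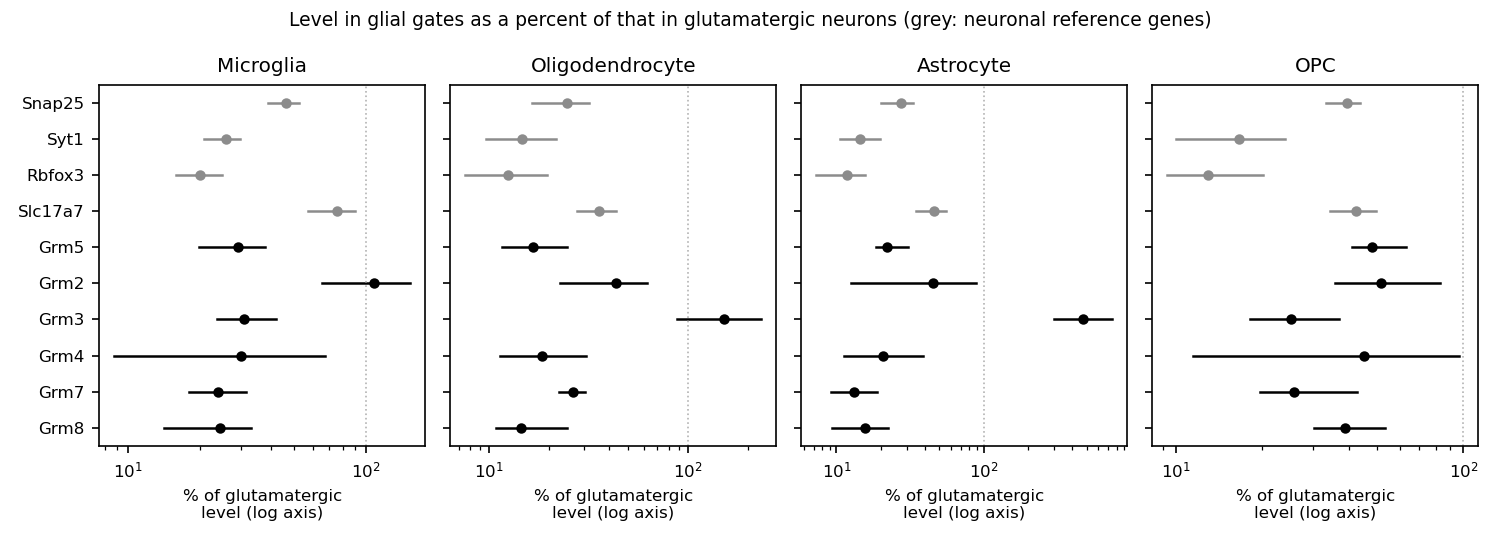
Level in 4 glial gates as a percent of the level in glutamatergic neurons of the same library (log axis); points are means and lines the range over 8 libraries, grey for the 4 neuronal reference genes and black for the receptor genes. Grm3 is above all references in astrocytes (469%) and oligodendrocytes (152%), whereas Grm5, Grm7 and Grm8 in microglia (24.0 to 28.9%) are within the reference range.

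Differences between types were tested inside libraries with edgeR's quasi-likelihood test, a term for each library and Benjamini-Hochberg (BH) adjustment over all genes. GABAergic neurons had less Grm2, Grm3, Grm4, Grm7 and Grm8 than glutamatergic neurons, so 5 of 6 members were called, all lower, where 63.6% of all genes were called, 33.0% higher and 30.6% lower. Grm7 was 2821 ± 85.6 CPM in glutamatergic and 942 ± 130.5 CPM in GABAergic neurons (log2 difference -1.74, SE 0.05, adjusted p 3.6e-13 by edgeR). Grm2, Grm8, Grm3 and Grm4 were lower by log2 values of -2.03, -1.68, -1.54 and -0.56. Grm5 was at 1703 ± 119.8 CPM in glutamatergic and 1881 ± 120.9 CPM in GABAergic neurons, and after scaling the difference was -0.00 (95% interval -0.07 to 0.06, edgeR adjusted p 0.925). With types by cluster the Grm5 difference was -0.075 and called (edgeR adjusted p 0.0319), and with the stricter gate it was 0.061.

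Astrocytes differed from glutamatergic neurons for all 6 members (background 70.4% of genes, 34.4% higher and 36.0% lower). Grm3 was higher, by a log2 difference of 1.86 (SE 0.15, edgeR adjusted p 1.15e-09), a 3.62-fold level. The other members were lower, Grm7 by -3.21, Grm8 by -2.96, Grm4 by -2.61, Grm5 by -2.47 and Grm2 by -1.33. The remaining astrocyte levels of these 5 lay in the range of the neuronal reference genes given above.

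Within the oligodendrocyte lineage 3 of 4 members tested were called (background 59.6%, 31.7% higher and 28.0% lower in OPC). OPC had less Grm3 than oligodendrocytes (116 ± 26.9 against 672 ± 82.1 CPM, log2 difference -2.60, SE 0.11, edgeR adjusted p 1.6e-15). OPC had more Grm5 (1.48, SE 0.08) and more Grm8 (1.36, SE 0.11), though Grm8 in both types and Grm5 in oligodendrocytes lay within the range of the neuronal reference genes. Grm7 did not pass (-0.14, 95% interval -0.32 to 0.04, edgeR adjusted p 0.169), but did so without Chd8het male 2 (-0.25, edgeR adjusted p 0.0030). In that library Grm7 in OPC was 1236 CPM, against 550 to 723 CPM in the other 7. With predicted doublets kept the Grm5 and Grm8 differences were 0.67 and 0.50, and both were still called.

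All 6 members differed between L6 CT and L2/3 IT neurons, where 55.3% of genes were called, 28.2% higher and 27.0% lower. L6 CT had more Grm8 (1.96, SE 0.04), Grm4 (1.69, SE 0.07) and Grm3 (1.32, SE 0.07) and less Grm7 (-1.32, SE 0.04), Grm5 (-0.98, SE 0.03) and Grm2 (-0.92, SE 0.15), with edgeR adjusted p values from 3.1e-15 to 5.85e-05. So within group III the presynaptic receptors Grm7 and Grm8 differed in opposite directions between these types. For Grm8 the L6 CT libraries spanned 1014 to 1179 CPM and the L2/3 IT libraries 248 to 310 CPM, with no overlap.

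Among interneurons, those of medial ganglionic eminence type (MGE, Pvalb and Sst gates) were set against those of caudal type (CGE, Vip and Lamp5/Reln gates). Of 5 members tested, 4 were called, against 42.7% of genes (21.8% higher, 20.9% lower). MGE interneurons had more Grm3 (1.35, SE 0.07) and less Grm8 (-2.59, SE 0.09), Grm4 (-0.97, SE 0.17) and Grm7 (-0.59, SE 0.05). With types taken by cluster the differences were smaller for Grm4 (-0.52) and Grm7 (-0.22), and both were still called. Grm5 did not pass (-0.10, edgeR adjusted p 0.118), but was called without Chd8het male 2 (-0.15, edgeR adjusted p 0.0137). These contrasts average over unlike types: Grm7 was high in Sst and Vip and low in Pvalb and Lamp5/Reln.

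**Figure D3:**
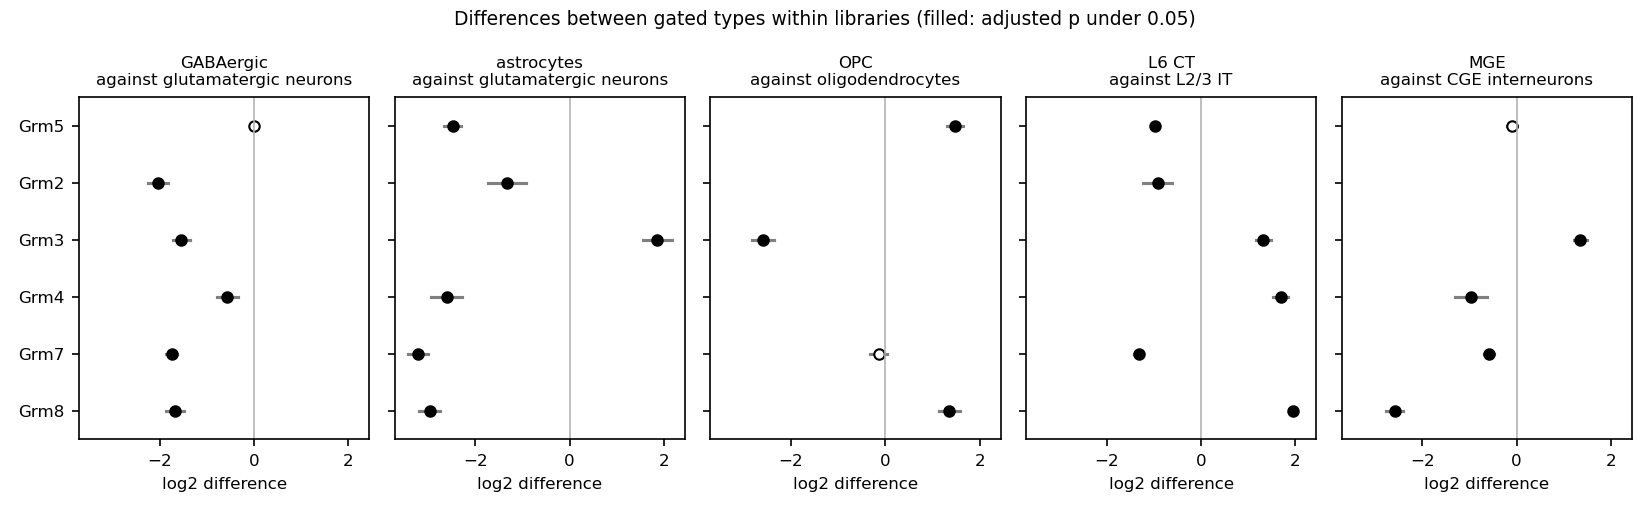
Log2 difference between types, from the fit with a term for each library; dots are estimates, lines 95% intervals, and filled dots have adjusted p under 0.05. Grm3 runs opposite to the other members in astrocytes (1.86) and to Grm8 among interneurons (1.35 against -2.59), and Grm5 is at -0.00 between neuron classes.

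In the libraries labelled Chd8het no member was called against WT in any type (0 of 72 tests of a member in a type, edgeR with sex and genotype, background 0.0% of 152243 tests of all genes). In place of sex, the paired model had a term for each assumed pair, the WT and Chd8het library of the same sex and replicate number. The labels do not say which libraries share a litter, and replicate number is also index type. In the paired model the members' count was again 0 while 41 of all tests were called (0.0269%). Of the 72 estimates 47 were higher in Chd8het, and they ran from -0.56 to 0.47 with a median of 0.07 on the log2 scale, where the medians of all genes by type were between -0.03 and 0.01. At an unadjusted p under 0.05 there were 3 of 72 (4.17%), against 2.58% of all genes, and all 3 were higher in Chd8het (background 1.42%). In the paired model there were 15 (20.8%), against 6.16% of all genes, of which 13 were higher in Chd8het (background 3.14%), and the lowest adjusted p among members was 0.517. DESeq2 called no member (background 0.00131%) and had 1 of 72 at an unadjusted p under 0.05, against 1.18%. With a term for index type no member was called either (background 0.023%), and 13 of 72 had an unadjusted p under 0.05, against 5.76%, 11 of them higher in Chd8het, against 2.91%. Tests of a member in several types rest on the same 8 animals and are not independent.

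Grm7 in L6 CT neurons had the lowest p of the members in the sex model. The WT libraries (male 1, male 2, female 1, female 2) were at 1130.0, 1129.8, 1124.0 and 1110.4 CPM and the Chd8het libraries in that order at 1280.9, 1415.5, 1344.5 and 1230.2 CPM. The genotypes did not overlap, and the Chd8het library was higher in 4 of 4 pairs. As this gene and type were picked by their p, these values are not separate support. The share of all genes with such a separation or such pairs was not counted, here or for the pair counts below. The log2 difference was 0.21 (SE 0.07, edgeR p 0.0135, adjusted p 1.00, paired p 0.0023 and paired adjusted p 0.517), and it was 0.22 within the single-indexed and 0.24 within the dual-indexed libraries. It ranged from 0.19 to 0.24 as each library was left out. The summed neuronal reference genes were at 6290 ± 1056 CPM in WT and 6933 ± 755 CPM in Chd8het L6 CT neurons (n = 4 each), also higher in 4 of 4 pairs, and their part in the result was not tested. In all glutamatergic neurons together Grm7 differed by 0.03 (95% interval -0.10 to 0.16).

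Lamp5/Reln interneurons held the other 2 members with unadjusted p under 0.05. Grm3 there was at 61.9, 71.8, 99.0 and 67.6 CPM in the WT and 103.3, 84.8, 109.3 and 111.7 CPM in the Chd8het libraries, and 1 WT library lay within the Chd8het range. The log2 difference was 0.45 (SE 0.17, edgeR p 0.0194, adjusted p 1.00), with 0.28 under the stricter gate and 0.22 with types by cluster. Grm8 was at 79.1, 149.1, 88.2 and 85.1 CPM in WT and 101.5, 201.3, 126.9 and 132.0 CPM in Chd8het, overlapping through WT male 2. Its log2 difference was 0.47 (SE 0.22, edgeR p 0.0427, adjusted p 1.00) and fell to 0.27 without Chd8het male 2. In both cases Chd8het was higher in 4 of 4 pairs. The summed glutamatergic markers in this gate were 107 to 169 CPM in WT and 117 to 199.5 CPM in Chd8het, with 6 of 6 markers detected, and their part was not tested.

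Glial gates gave several of the small p values of the paired model. Grm8 in oligodendrocytes was at 49.5 to 82.0 CPM in WT and 63.0 to 149.1 CPM in Chd8het (log2 difference 0.43, SE 0.25, edgeR paired p 0.0080, paired adjusted p 0.537), and in astrocytes at 42.7 to 89.8 and 72.3 to 136.1 CPM (0.41, SE 0.25). The first fell to 0.12 without Chd8het male 2 and the second to 0.16 without WT male 1. In microglia Grm7 was at 505 to 702 CPM in WT and 538 to 874 CPM in Chd8het (0.28, SE 0.17), and Grm5 at 315 to 515 and 400 to 666 CPM (0.27, SE 0.19). As each library was left out Grm7 ranged from 0.14 to 0.40 and Grm5 from 0.12 to 0.41, both lowest without Chd8het male 2, and with types by cluster they were 0.60 and 0.44. Chd8het was higher in 4 of 4 pairs for Grm7 and in 3 of 4 for Grm5. The genotypes overlapped in each case and none was called. The summed neuronal reference genes were higher in Chd8het in the same gates. They were at 1693 ± 64.1 CPM in WT and 1955 ± 103.2 CPM in Chd8het microglia (n = 4 each), with all 4 Chd8het libraries (1858 to 2081 CPM) above all WT libraries (1639 to 1780 CPM). In oligodendrocytes they were at 864 ± 114.3 and 1154 ± 175.2 CPM, and in astrocytes at 933 ± 84.4 and 1155 ± 127.2 CPM. Their part in these results was not tested. Grm3, which stood above the reference range in both astrocytes and oligodendrocytes, was at 2308 ± 743 and 1921 ± 510 CPM in astrocytes (log2 difference -0.25, 95% interval -0.75 to 0.25) and at 714 ± 91.6 and 630 ± 51.4 CPM in oligodendrocytes (-0.22, 95% interval -0.48 to 0.04), and neither was called. In oligodendrocytes Grm3 was lower in Chd8het in 4 of 4 pairs (edgeR paired p 0.0253, paired adjusted p 0.571). The astrocyte difference was -0.50 without Chd8het male 2 and -0.10 without Chd8het female 1.

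Elsewhere the estimates for the highest types were near 0. Grm5 in glutamatergic neurons was at 1581.6, 1791.5, 1697.6 and 1844.8 CPM in WT and 1610.9, 1680.9, 1550.8 and 1863.1 CPM in Chd8het, a log2 difference of -0.07 (95% interval -0.25 to 0.11). In its highest type, Lamp5/Reln, the difference was -0.07 (-0.30 to 0.17). Grm2 in L4/5 IT differed by 0.06 (-0.37 to 0.50), and Grm8 in L6 CT by 0.02 (-0.16 to 0.19). The intervals hold the differences that these data do not exclude. Grm8 in L5/6 NP was at 1200 ± 200 CPM in WT and 998.5 ± 185 CPM in Chd8het (log2 difference -0.30, 95% interval -0.65 to 0.05, edgeR paired p 0.0067, paired adjusted p 0.694). It was -0.17 without Chd8het male 2, and WT male 1 was at 1500 CPM where the other WT libraries were at 1093 to 1106 CPM. Apart from those given above, and Grm4 below, the edgeR paired p values under 0.05 were all for higher levels in Chd8het. For Grm3 the paired log2 difference was 0.43 in L2/3 IT (edgeR paired p 0.0237) and 0.29 in OPC (0.0353). It was 0.23 for Grm5 in oligodendrocytes (0.0423), 0.29 for Grm7 in Lamp5/Reln (0.0489) and 0.38 for Grm8 in Pvalb (0.0269). None was called.

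**Figure D4:**
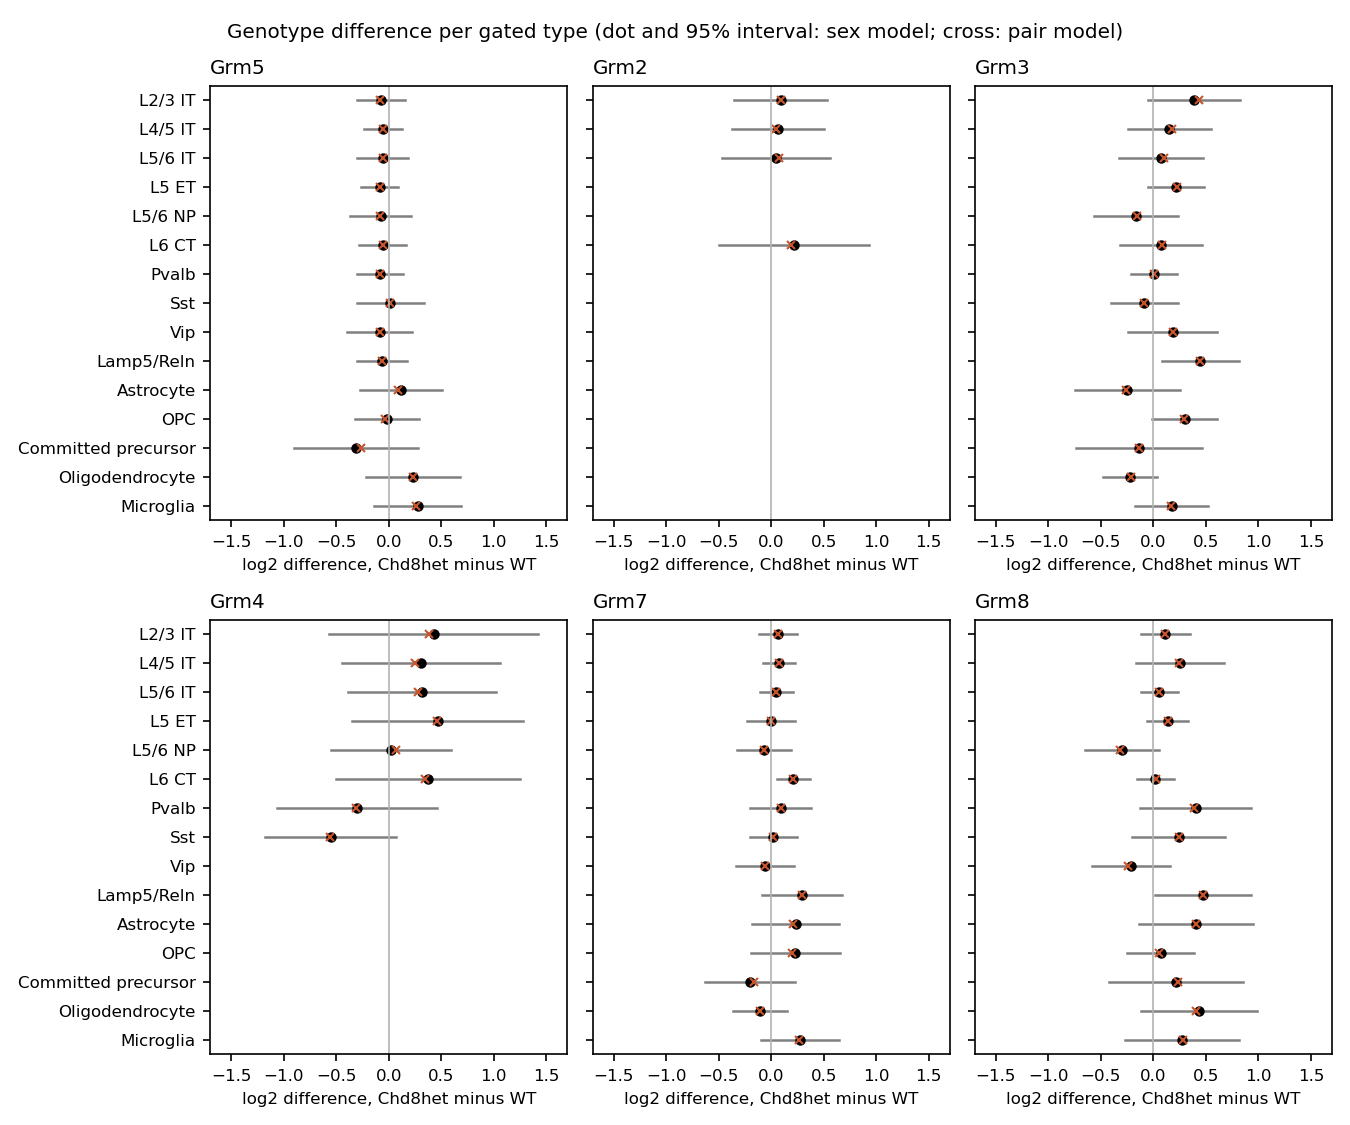
Genotype difference (log2, Chd8het minus WT) of each receptor gene in each type where it passed the count filter; dots and lines are estimates and 95% intervals of the sex model, crosses the paired model. The 72 estimates lie between -0.56 and 0.47, and none passed after adjustment.

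In glutamatergic types the sign of the Grm4 differences in the sex model turned with 1 library. In L6 CT neurons it was at 10.7, 25.0, 17.4 and 19.3 CPM in WT and 15.4, 51.9, 15.8 and 18.4 CPM in Chd8het, where only Chd8het male 2 was outside the WT range. The same library was the highest of the 8 in each of the 6 glutamatergic types, at 14.7 (L2/3 IT), 59.2 (L4/5 IT), 20.7 (L5/6 IT), 81.0 (L5 ET) and 106 CPM (L5/6 NP). With all libraries the log2 difference was 0.43 in L2/3 IT, 0.30 in L4/5 IT, 0.32 in L5/6 IT, 0.47 in L5 ET and 0.38 in L6 CT, and without Chd8het male 2 it was below 0 in each (-0.14, -0.10, -0.11, -0.06 and -0.16). That fit has no pair term and keeps WT male 2, the library with the same sex and number. By pairs Chd8het was higher in 4 of 4 in L4/5 IT, in L5 ET and in all glutamatergic neurons, in 3 of 4 in L2/3 IT, in 2 of 4 in L5/6 IT and L6 CT and in 1 of 4 in L5/6 NP, where the log2 difference was 0.02. In L5 ET the pairs were 16.4 and 25.7, 39.0 and 81.0, 20.5 and 22.2, and 35.7 and 37.0 CPM (WT, then Chd8het). The paired log2 difference was 0.46 in L5 ET (edgeR paired p 0.0298, paired adjusted p 0.561) and 0.28 in all glutamatergic neurons (edgeR paired p 0.0283, paired adjusted p 0.719). Chd8het male 2 had the most L5/6 NP nuclei (143, against 45 to 104 in the others) and the fewest L4/5 IT nuclei (261). The L5/6 NP markers summed to 249 CPM in its L2/3 IT gate, against 35.6 to 181 CPM in the other 7, and to 258 CPM in its L6 CT gate, against 76.0 to 209 CPM. The part of these values in the result was not tested. In Sst interneurons Grm4 had the lowest of the 72 estimates, at 19.3, 33.2, 31.9 and 27.7 CPM in WT and 22.0, 22.2, 14.3 and 17.8 CPM in Chd8het, lower in 3 of 4 pairs. The log2 difference there was -0.56 (SE 0.29, edgeR p 0.0766, adjusted p 1.00), from -0.78 to -0.40 as each library was left out and -0.11 with types by cluster.

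**Figure D5:**
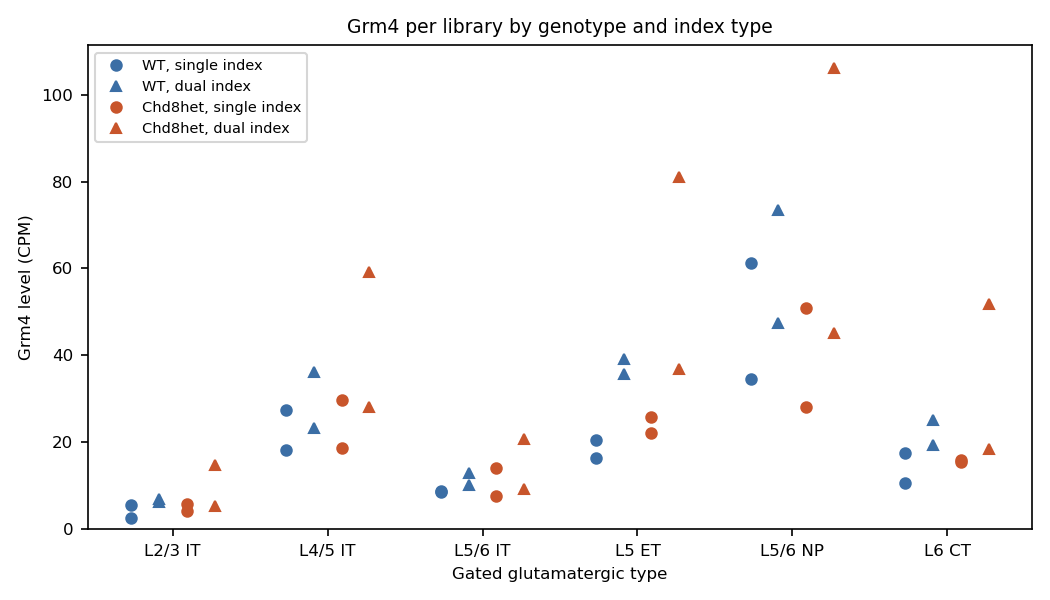
Grm4 level (CPM, linear axis from 0) in the 6 glutamatergic types; each mark is 1 library, circles single-indexed and triangles dual-indexed, blue WT and orange Chd8het. The highest mark in every type is Chd8het male 2, a dual-indexed library, at 81.0 CPM in L5 ET and 106 CPM in L5/6 NP.

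Index type, which is balanced over genotype and sex, gave calls among the members where genotype gave none. With index type as a term, 12 of 72 tests of members were called, where 12.3% of all tests were called, and all 12 were higher in dual-indexed libraries (6.83% of all tests). These 12 calls by type were 6 of Grm5, 3 of Grm7, 2 of Grm8 and 1 of Grm4. At an unadjusted p under 0.05 there were 33 of 72, against 27.1%. Over whole classes Grm2 was lower in dual-indexed glutamatergic neurons (-0.38, background 32.0% called). By type Grm2 was called in 0 of 4 tests, with estimates from -0.44 to -0.02. L4/5 IT, the highest Grm2 type, made up 6.28 to 14.96% of glutamatergic nuclei in dual-indexed and 18.53 to 23.13% in single-indexed libraries. The part of this mix of types in the class difference was not tested. Grm5, Grm7 and Grm8 were higher in dual-indexed GABAergic neurons (0.19, 0.27 and 0.55, background 22.9%). Grm4 in L5 ET was at 16.4 to 25.7 CPM in the single-indexed and 35.7 to 81.0 CPM in the dual-indexed libraries, with no overlap (log2 difference 1.16, SE 0.21, edgeR adjusted p 0.0010). Grm5 in Sst interneurons was at 1257 to 1604 and 1838 to 1899 CPM (0.41, SE 0.09), again with no overlap, and in microglia at 315 to 475 and 498 to 666 CPM (0.49, SE 0.11). The summed neuronal reference genes in microglia were at 1651 to 2081 and 1639 to 1997 CPM, and their part in the Grm5 difference was not tested. Index type is replicate number, so the index and whatever else the numbers stand for cannot be told apart. No member was called for the product of sex and genotype (0 of 72 by edgeR, background 0.0%), and 2 of 72 had an unadjusted p under 0.05, against 1.47% of all tests.

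The other genes of the pathway came from a list of 39, covering G protein subunits, phospholipase C and calcium release, adenylyl cyclases, scaffolds, trans-synaptic partners, desensitisation and endocannabinoid output. Between genotypes none was called in any type by edgeR (0 of 497 tests in the sex model and in the paired model). At an unadjusted p under 0.05 there were 17 (3.42%) in the sex model, against 2.58% of all genes, and 55 (11.1%) in the paired model, against 6.16%. The 4 genes with the smallest p in any type, given as values and not calls, were Itpr2, a calcium release channel, in Pvalb neurons (log2 difference 0.52), Adcy1, a calcium-stimulated adenylyl cyclase, in astrocytes (0.59), Elfn2, a trans-synaptic partner of group III receptors, in microglia (0.98), and Grk3, a receptor kinase, in oligodendrocytes (0.74). In those 3 glial gates the summed neuronal reference genes were also higher in Chd8het, as given above, and their part in these values was not tested.

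Between types the list had members in both directions. The groups of listed genes named below were picked without a rule set beforehand. The other groups are not described, and nothing is read from the counts of single groups. In OPC against oligodendrocytes 24 of 36 listed genes were higher and 6 lower (31.7% and 28.0% of all genes), among them 7 of 7 tested genes of phospholipase C and calcium release, the route of Grm5. Their median log2 difference was 0.88, against 0.03 over all genes tested. Neuronal reference genes were also higher in OPC than in oligodendrocytes in mean level, Snap25 at 352 against 220 CPM, Syt1 at 703 against 622 CPM and Slc17a7 at 103 against 87.8 CPM, and their part in this count was not tested. In GABAergic against glutamatergic neurons 13 were higher and 17 lower of 39 (33.0% and 30.6% of all genes), and 6 of 8 genes of phospholipase C and calcium release were lower while Grm5 did not pass. Astrocytes had 12 higher and 20 lower of 39 against glutamatergic neurons (34.4% and 36.0% of all genes), with 5 of 6 adenylyl cyclases lower. L6 CT had 15 higher and 13 lower of 38 against L2/3 IT (28.2% and 27.0% of all genes), with 5 of 6 adenylyl cyclases higher, and MGE interneurons 8 higher and 10 lower of 36 (21.8% and 20.9% of all genes). Elfn1, the postsynaptic protein that binds Grm7 across the synapse, was at 157 ± 26.6 CPM in Sst interneurons and at 2.49 ± 1.34 CPM in L2/3 IT neurons (n = 8), and this gene was singled out after its values were seen.

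The genes with the most similar profile over the 15 types were taken from 13288 genes by Pearson's r of log2(mean CPM + 1), as a description over type means that share libraries and depth. Grm5 was most like Gm1715 (r 0.95), Sptbn4 (0.95) and Fbxo41 (0.95), Grm7 like Gm49685 (0.90), Pcsk1 (0.89) and Cdh8 (0.89), and Grm8 like Ldb2 (0.89), Gm43507 (0.89) and Sdk2 (0.87). Grm4 was most like Ylpm1 (0.86), Rit2 (0.85) and Rgs17 (0.84), and Grm2 like Stk25 (0.86), Crhr1 (0.84) and Plxnd1 (0.83). Grm3 was most like Arap2 (0.83), B3galt1 (0.81) and Kdm5b (0.81), the lowest best match of the 6. Among the members the most similar profiles were those of Grm4 and Grm7 (r 0.70) and of Grm4 and Grm5 (0.68), and Grm3 had r between -0.21 and 0.30 with the others.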

How the data were processed

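The authors deposited whole-number UMI counts per barcode and gene for 8 libraries. Per the submitters' processing notes the tools were STAR 2.7.9a, STARsolo and Cell Ranger with build mm10, and their roles, annotation and filters are not given in the sources used here. Nuclei with at least 500 genes and at most 5% mitochondrial UMIs (82168) were kept, and 4278 doublets predicted by Scrublet (5.21%, scanpy 1.11.5) were removed. Each nucleus was scored on marker lists. A class needed at least 3 detected markers and a margin of 0.1 over the next class, and a type within the neuron classes at least 2 markers and the same margin. Counts were summed per library and type and tested with edgeR 4.0.16 (quasi-likelihood, two-sided, TMM scaling, filterByExpr with a minimum count of 10, BH within each type, called at adjusted p under 0.05) with sex and genotype. SEs come from the F statistic. Alternatives used DESeq2 1.42.0, other scaling, filters, gates and left-out libraries. Printed CPM are unscaled. For the order test CPM had 1 added. The fits were also run on simulated counts with changes larger than the members' genotype estimates and without pair or index effects. That run therefore cannot show how well such small differences are detected.

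The members and lists were chosen with earlier results of these data known. All 6 members were named in every type, and of the pathway list those called between genotypes or else the 4 genes with the smallest p. A pair was taken as the WT and Chd8het library that share sex and number, because the labels name pairs matched for litter and sex but not which libraries form them. Their deviations from the genotype means correlated in each of 68 pairs and units (r 0.11 to 0.65), and 63 of 68 correlated best with their own number. Sex and index type were not removed from these deviations, and both are shared within an assumed pair. The correlations therefore cannot show which libraries share a litter. Of 32285 gene identifiers 32158 matched GENCODE release 21. Depth limits Grm2 and Grm4 most, since their UMIs are few, and intervals and counts cover these 8 animals only. Other genes of the family were not analysed here, and 1 gene of the reference list is not reported here and was left out of its ranges and sums.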

Additional observations from a re-analysis of the deposited data

Results flagged for a closer look

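In groups of 4 libraries of one genotype and type, 12 of 144 groups held 1 library apart from the other 3. The test used has a nominal chance rate of about 1 group in 20. The share over all genes was not counted and the groups rest on the same 8 libraries, so nothing is read from this count. Chd8het male 2 was the library apart in 6 of the 12 groups. Its Grm4 was high in L2/3 IT (14.7 CPM, the others 4.24 to 5.76), L6 CT (51.9 CPM, the others 15.4 to 18.4) and Pvalb neurons (9.43 CPM, the others 3.90 to 4.72). Its Grm8 was high in Pvalb neurons (92.7 CPM, the others 41.5 to 43.0), its Grm7 high in OPC (1236 CPM, the others 607 to 678) and its Grm5 low in L5/6 NP (1969 CPM, the others 2632 to 2744).

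WT male 1 stood apart for Grm8 in 3 types, low in L5/6 IT (780 CPM, the others 891 to 903) and Pvalb (31.8 CPM, the others 41.1 to 43.0) and high in L5/6 NP (1500 CPM, the others 1093 to 1106). The remaining cases were Grm3 in L5/6 IT of WT female 1 (721 CPM, the others 383 to 434), Grm3 in Vip of Chd8het female 2 (111 CPM, the others 86.8 to 89.9) and Grm8 in Lamp5/Reln of WT male 2 (149 CPM, the others 79.1 to 88.2).

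In 7 of 72 cases both male pairs moved up and both female pairs down in Chd8het. The share of all genes that do so was not counted, and nothing is read from this number. The product of sex and genotype (female minus male difference, log2, edgeR) was -0.62 for Grm2 in L2/3 IT, -0.57 for Grm3 and -0.51 for Grm5 in astrocytes, -0.97 for Grm4 in L6 CT, -0.19 for Grm7 in L5 ET, -0.997 for Grm7 in Lamp5/Reln and -0.89 for Grm8 in Sst. For Grm7 in Lamp5/Reln the edgeR p was 0.0033 and the adjusted p 1.00, and no adjusted p passed in the others.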

How the results depend on the processing

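The count of members called between genotypes stayed at 0 under all alternatives run, the replicate block (a term for each pair) included. Over all genes the count was 0 and became 41 with the replicate block, 35 with index type, 1 without sex, 2 with DESeq2, 69 with DESeq2 and the replicate block, 180 without the count filter, 1 with doublets kept and 0 to 1 as each library was left out (1 without Chd8het male 1). DESeq2 with the block and levels per nucleus were chosen after seeing the data. Members called in OPC against oligodendrocytes were 3 of 4 tested (6403 of 10739 genes), 5 of 6 without the count filter (8178 of 24184) and 5 of 5 with doublets kept (6487 of 11837). Grm7 was at -0.27 under both alternatives. Distinct steps in the orders were 19 of 84, 17 to 28 under other filters and gates, and 0 with any library left out, where the smallest p is 0.015625.

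Some differences between genotypes and types turned sign, with the range over left-out libraries given as lowest to highest. For Grm4 the range was -0.14 to 0.62 (L2/3 IT), -0.098 to 0.55 (L4/5 IT), -0.11 to 0.52 (L5/6 IT), -0.059 to 0.77 (L5 ET), -0.16 to 0.58 (L6 CT), -0.069 to 0.49 (all glutamatergic neurons) and -0.33 to 0.20 (L5/6 NP). Each lowest value is that without Chd8het male 2. In L5/6 NP it also turned to -0.25 with the stricter gate, -0.034 with the stricter nucleus filter and -0.0099 with DESeq2 and the replicate block. The range was -0.092 to 0.23 for Grm2 in L4/5 IT, -0.058 to 0.27 for Grm3 in glutamatergic neurons and -0.027 to 0.060 for Grm8 in L6 CT. Grm5 in GABAergic against glutamatergic neurons ranged from -0.0071 to 0.00073, and was 0.0029 with doublets kept, 0.0022 with the stricter nucleus filter, 0.061 with the stricter gate, and -0.075 and called with types by cluster (edgeR adjusted p 0.0319). Grm5 in MGE against CGE interneurons was 0.0040 with types by cluster and -0.21 and called with the stricter gate. The cause was not tested. Of the other values compared between types, 366 kept their direction and side of the threshold.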
